A study of Mus musculus with 4 samples.

Results

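Among CD45+CD11b+ cells sorted from mouse ovary, 125 of 6281 kept cells carried RNA of the steroid hormone pathway, which is known from theca, luteal and granulosa cells. A barcode was kept when it had at least 500 genes, at least 1000 gene UMIs (unique molecular identifiers, each standing for 1 captured RNA molecule), at most 10% mitochondrial UMIs, and a top hashtag of at least 10 counts and at least 3 times the second. A kept cell was a member when its UMIs of Cyp11a1, Hsd3b1 and Star summed to at least 10, so the members were selected on the measured UMIs of these 3 genes, whose levels are given below without a test. The cells came from virgin wild-type C57BL/6J females, labelled 15 months and 3 months, with 3 hashtag pools of each age and no transgene or treatment in any group. The protocol gives the harvest ages as 14 to 17 months, from 5 animals with 1 pool made of a single mouse, and as 2 to 3 months, from 6 animals with 2 to a pool. The series text instead gives 2 mice for every pool. Each age had its pools mixed, sorted once and made into a single Chromium 3' library. So the age of a cell and its library cannot be told apart. The p-values measure only the spread between pools.

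In the ovary, steroid hormones are made from cholesterol. Star, the steroidogenic acute regulatory protein, moves cholesterol into mitochondria, Cyp11a1 cleaves its side chain to give pregnenolone with electrons passed on by Fdxr and Fdx1, and Hsd3b1 turns pregnenolone into progesterone. Theca cells go on to androgens through Cyp17a1, granulosa cells make oestrogens from them and secrete inhibin and activin, and luteal cells, formed from both after ovulation, secrete mainly progesterone.

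Of 4939 barcodes at 15 months, with 45060166 gene UMIs in all, 4100 were kept. Of 3135 barcodes at 3 months, with 27277073 gene UMIs, 2181 were kept. The members had a median of 16107 UMIs and 3987 genes, against 7593 UMIs and 2173.5 genes in the 6156 other kept cells. Their median mitochondrial share was 5.41%, against 2.21% in the other kept cells. The libraries shared 3 barcode sequences, and 0 of these were members. The doublet caller scrublet marked 0.0690% of barcodes at 15 months and 0.134% at 3 months, too few to count as a working call, so doublets other than those with mixed hashtags were not removed.

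Most members carried the markers of the theca or luteal label, and some did not. The rule UMIs ran from 10 to 1066 in a member, with a median of 139. The 4 given markers were all present: Fdx1, the electron carrier, was seen in 119 members, Akr1cl, an aldo-keto reductase, in 117, Hsd3b1 in 114 and Cyp11a1 in 111. Hsd3b1 and Cyp11a1 were used to choose the cells, so their presence is no independent support for the label. Fdx1 and Akr1cl, which the rule did not use, stood at 3338 and 3201 CPM (a gene's UMIs over all gene UMIs, summed over the cells named and scaled as counts per 10 to the power of 6) in the members, against 42.1 and 81.1 CPM in the other kept cells. In cells with neutrophil genes 3.21% carried a Fdx1 UMI and 3.61% an Akr1cl UMI, at a median depth of 2194 UMIs. In T or NK gene cells, with a median of 3835 UMIs, the same shares were 15.6% and 3.85%. They were 21.5% and 5.56% in B gene cells, with a median of 6469 UMIs. In other kept cells with at least 10 UMIs of the C1q genes, with a median of 10594 UMIs, they were 35.8% and 23.7%. Stromal cells, called by collagen and decorin UMIs, had 675 CPM of Akr1cl, so that marker was not particular to the members.

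The promoters of the 4 marker genes are printed because their transcripts appear together in these cells. Each line gives 250 bases before and 50 after the start in RefSeq on build GRCm38.p6, in the direction of the gene. Capitals mark TCAAGG and its reverse complement CCTTGA, the core of the sites bound by Nr5a1, the transcription factor named for its control of steroidogenic genes.
Akr1cl, chr1:65032710-65033009, minus strand: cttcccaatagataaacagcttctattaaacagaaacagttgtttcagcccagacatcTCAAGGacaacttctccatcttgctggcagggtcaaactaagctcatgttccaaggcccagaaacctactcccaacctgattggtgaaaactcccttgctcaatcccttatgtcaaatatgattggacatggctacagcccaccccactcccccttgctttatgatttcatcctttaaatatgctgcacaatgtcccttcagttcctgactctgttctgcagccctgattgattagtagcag
Hsd3b1, chr3:98859745-98860044, minus strand: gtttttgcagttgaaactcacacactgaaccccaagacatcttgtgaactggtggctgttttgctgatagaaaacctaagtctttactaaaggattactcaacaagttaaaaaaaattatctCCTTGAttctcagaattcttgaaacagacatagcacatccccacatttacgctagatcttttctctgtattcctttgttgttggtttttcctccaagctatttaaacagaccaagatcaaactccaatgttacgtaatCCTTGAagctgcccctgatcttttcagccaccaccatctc
Fdx1, chr9:51963553-51963852, minus strand: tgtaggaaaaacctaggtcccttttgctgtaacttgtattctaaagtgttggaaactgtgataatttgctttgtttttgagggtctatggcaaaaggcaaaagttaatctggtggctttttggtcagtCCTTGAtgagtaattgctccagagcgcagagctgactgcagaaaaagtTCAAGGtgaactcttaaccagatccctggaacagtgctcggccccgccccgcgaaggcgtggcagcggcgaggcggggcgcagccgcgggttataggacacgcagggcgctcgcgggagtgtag
Cyp11a1, chr9:58014702-58015001, plus strand: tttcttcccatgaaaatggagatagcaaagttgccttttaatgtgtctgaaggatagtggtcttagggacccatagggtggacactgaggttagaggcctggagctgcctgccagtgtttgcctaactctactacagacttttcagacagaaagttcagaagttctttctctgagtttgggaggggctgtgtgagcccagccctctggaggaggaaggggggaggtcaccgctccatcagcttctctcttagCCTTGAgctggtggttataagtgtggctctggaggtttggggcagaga
The 6 letters occurred once or more in all of these windows, with 2 matches each at Fdx1 and Hsd3b1 and 1 each at Akr1cl and Cyp11a1. The only Cyp11a1 match lay 2 bases past the start, and 1 of those at Hsd3b1 also lay past it, so this Cyp11a1 window held none upstream. A second RefSeq start of Cyp11a1, at 57998024 on chromosome 9 and 8387 bases from any GENCODE start of the gene, had 0. Of 32851 mouse promoter windows of this length, 4744 (14.4%) held the motif on one strand or the other. A match is a description of the letters and not of binding. Nr5a1 itself was seen in 65 members, at 57.5 CPM, against 1.67 CPM in the other kept cells.

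Genes outside the rule that stood furthest above the other kept cells, among those of at least 200 CPM in the members, were led by Cyp17a1 (508.7 against 0.727 CPM), Hao2, a peroxisomal hydroxyacid oxidase (337 against 0.852), Mgarp, a mitochondrial protein of steroid-making tissues (1794 against 4.59), and Sfrp4, a secreted Wnt modulator (275 against 0.763). Next came Cst8, a cystatin (212 against 0.781), Prlr, the prolactin receptor (628 against 3.42), Me1, a malic enzyme that makes NADPH (1154 against 7.75), Aldh1a1, a retinal dehydrogenase (1399 against 9.58), Prss35, a serine protease-like protein (684 against 5.46), and Folr1, a folate receptor (265 against 2.48). Hsd3b1 and Cyp11a1 completed the 12 highest ratios. These are descriptions of cells picked for related genes and carry no test.

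Across the 125 cells, the genes most like the rule sum included both electron carriers of Cyp11a1. Pearson's r of log-scaled levels was 0.881 for Mgarp, 0.854 for Fdxr, 0.853 for Fdx1, 0.810 for Me1, 0.780 for Prlr, 0.733 for Map1lc3a, 0.733 for Dnajc15 and 0.727 for Acsbg1, out of 7288 genes compared. The cells share libraries and differ in depth, so these values are descriptions. Tyrobp had r = -0.519 and C1qa r = -0.513.

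Myeloid RNA was uneven among the members. Tyrobp, a signalling adaptor of myeloid cells, was at 0 in 68 of 125 members, C1qa, a complement gene of tissue macrophages, at 0 in 78, and both at 0 in 61. Ptprc, which encodes CD45, had no UMI in 81 members, and Itgam, which encodes CD11b, in 97. Of the members, 42 had at least 5 Tyrobp UMIs, with a highest count of 155, and their 1786 Tyrobp and 2640 C1qa UMIs gave 1.48 C1qa for each Tyrobp UMI. C1q cells, the 2412 kept cells with at least 10 UMIs of the C1q genes that were no members, had 1.45 on the same measure. By age the value was 1.31 at 15 months and 1.86 at 3 months in the 42 members. In C1q cells it was 1.42 at 15 months and 1.52 at 3 months. C1qa was seen in 35 of the 42 members, so the pooled value does not describe each cell. The other 83 members held 22 Tyrobp and 32 C1qa UMIs in all, or 15.0 and 21.8 CPM, against 2652 and 2149 CPM in the other kept cells. The 15 myeloid genes of the list took 1.23 ± 0.340% of member UMIs at 15 months and 0.819 ± 0.290% at 3 months (SD over 3 pools of each age), which did not differ beyond the spread (exact two-sided permutation p = 0.2, smallest possible 0.1). The same list took 3.55 ± 0.101% at 15 months and 3.44 ± 0.172% at 3 months in the other kept cells. The sign of the difference in the members depended on the rule: it was -0.0168 percentage points with a threshold of 5 UMIs and -0.264 with 20. At 20 UMIs pool 3 of 15 months had under 5 cells and was left out.

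**Figure D1:**
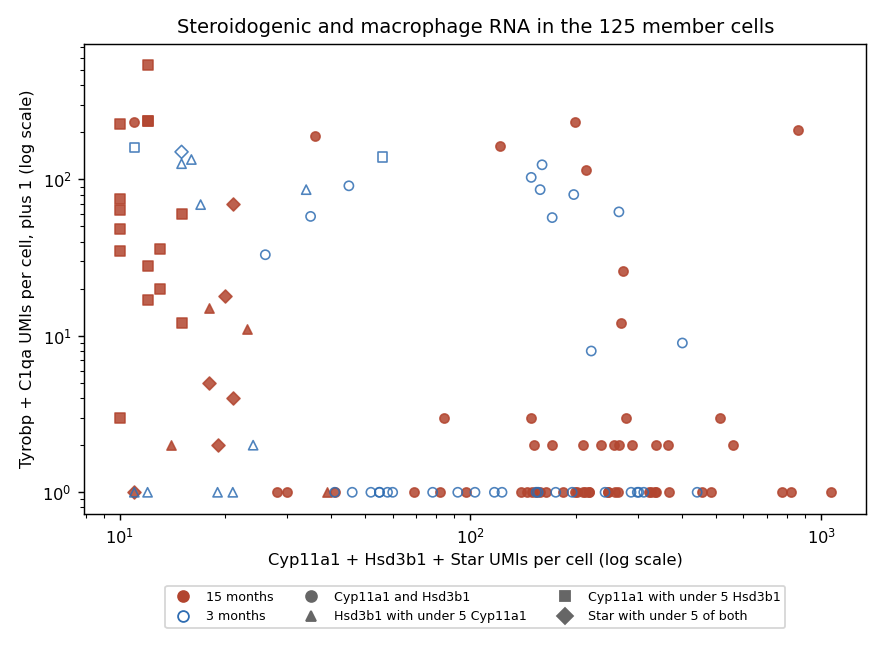
Each point is 1 of the 125 member cells. The x axis gives UMIs of Cyp11a1, Hsd3b1 and Star and the y axis UMIs of Tyrobp and C1qa plus 1, both on log scales, with shape for the pattern of the rule genes. Cells with no Tyrobp or C1qa UMI lie on the bottom line (61 cells), and the square symbols, for Cyp11a1 with under 5 Hsd3b1 UMIs, lie mostly on the left with high myeloid counts.

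The rule genes did not always come together, and 4 patterns were separated with a limit of 5 UMIs that was set after the values were seen. Cyp11a1 and Hsd3b1 both reached 5 UMIs in 88 members, 55 of 80 at 15 months and 33 of 45 at 3 months. In these cells Cyp11a1 had a median of 113.5 UMIs and Hsd3b1 of 62, all 88 carried Akr1cl and all 88 carried Fdx1, and 60 had no Tyrobp UMI. Mgarp stood at 2653 CPM, Prlr at 911 CPM and Lhcgr, the receptor for luteinizing hormone, at 220 CPM.

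Hsd3b1 reached 5 UMIs with under 5 of Cyp11a1 in 13 members, 4 at 15 months and 9 at 3 months. These cells carried granulosa genes: Inha, the inhibin alpha subunit, stood at 1508 CPM against 587 CPM in the first pattern, Inhba, an activin subunit, at 428 against 147 CPM, Fst, the activin-binding follistatin, at 234 against 82.7 CPM, and Foxl2, a granulosa transcription factor, at 215 against 60.0 CPM. All 34 Amh UMIs of the members lay in 4 of these 13 cells, at 105 CPM for the pattern. Fshr, the receptor for follicle-stimulating hormone, had 2 UMIs in all members and Cyp19a1, the aromatase, 10. The 13 cells had a median of 17 Hsd3b1 UMIs. Inha was seen in 12 of them, Fst in 7 and Inhba in 5. Tyrobp stood at 505 CPM and C1qa at 840 CPM, and 6 of the 13 had at least 5 Tyrobp UMIs.

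Cyp11a1 reached 5 UMIs with under 5 of Hsd3b1 in 17 members, 15 at 15 months and 2 at 3 months. They had a median of only 10 Cyp11a1 UMIs, and 16 of the 17 had at least 5 Tyrobp UMIs. Tyrobp stood at 3051 CPM and C1qa at 4241 CPM in them, against 2652 and 2149 CPM in the other kept cells. C1qa was seen in 12 of the 17. The highest ratios to the other kept cells came from few cells: Prss34 (336 against 0.106 CPM) was seen in 2 of the 17, and Mcpt8 (557 against 4.33 CPM) and the cytokine Il4 (153 against 3.34 CPM) in 5 each. Prss34 and Mcpt8 are basophil proteases in the mouse, and 1 cell held 109 of the 146 Mcpt8 UMIs. Of these cells, 5 had at least 3 UMIs of such genes (Mcpt8, Prss34, Cpa3 and Ms4a2 summed). All 5 were from 15 months, with 10 to 13 UMIs of Cyp11a1, 0 of Hsd3b1, 0 of Star and at most 1 of C1qa. Of the 20 non-member kept cells with at least 10 UMIs of these genes, 14 had a Cyp11a1 UMI. Of the given markers, Fdx1 was seen in 11 of the 17, at 225 CPM, and Akr1cl in 9, at 240.3 CPM. These levels lay above those of the other kept cells (42.1 and 81.1 CPM) and below those of the first pattern (4903 and 4365 CPM). The myeloid and basophil values went against the label of theca or luteal cells. Whether some of the 17 were such cells with attached myeloid RNA was not tested.

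Star was at 10 to 21 UMIs with under 5 of both other genes in 7 members, 6 at 15 months and 1 at 3 months. Epcam, an epithelial adhesion gene, stood at 1088.5 CPM in them and was at 0 in the first pattern, with at least 5 UMIs in 5 of the 7 cells. Lgr5, a stem cell receptor also found on the ovarian surface (344 against 1.77 CPM), Cst12 (400 against 2.48 CPM), Lhx9 (418 against 2.73 CPM), Lgals7 (2403 against 17.0 CPM) and Hsd17b2 (289 against 2.06 CPM) had the 5 highest ratios to the other kept cells, each seen in 4 or 5 of the 7. They had a median of 41618 UMIs, the deepest of the 4 patterns.

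**Figure D2:**
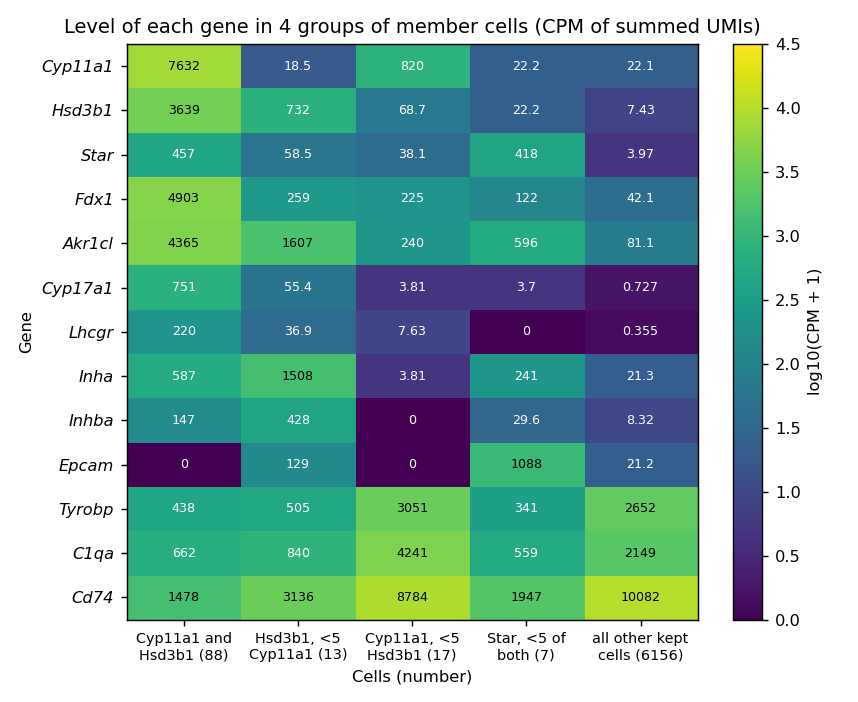
Rows are genes and columns the 4 patterns of member cells and all other kept cells, with cell numbers in brackets. Colour is log10(CPM + 1) of summed UMIs and the printed number the CPM. Fdx1 stands at 4903 CPM in the first column, Inha at 1508 CPM in the second, and Tyrobp at 3051 CPM in the third, next to 2652 CPM in all other kept cells.

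Cells on both sides of the limit of 10 UMIs were low in Fdx1 and often carried Tyrobp. The 16 members with 10 to 12 rule UMIs had 157 CPM of Fdx1 and 2450.5 CPM of Tyrobp, and 12 of them had at least 5 Tyrobp UMIs. The 32 kept cells with 7 to 9 rule UMIs had 200.3 CPM of Fdx1 and 1808 CPM of Tyrobp, and 20 had at least 5 Tyrobp UMIs. The 79 members with at least 50 rule UMIs had 5137 CPM of Fdx1 and 373 CPM of Tyrobp.

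The share of members did not differ between ages beyond the spread of pools. At 15 months the pools held 12 of 767 kept cells (1.56%, 95% Wilson interval 0.897 to 2.71%), 63 of 2437 (2.59%, 2.03 to 3.29%) and 5 of 896 (0.558%, 0.239 to 1.30%). At 3 months they held 9 of 725 (1.24%, 0.654 to 2.34%), 9 of 479 (1.88%, 0.992 to 3.53%) and 27 of 977 (2.76%, 1.91 to 3.99%). The pools of the ages overlapped, and the intervals cover counting error only. The means were 1.57 ± 1.01% at 15 months and 1.96 ± 0.764% at 3 months (SD, n = 3 each), a difference of -0.392 percentage points (exact two-sided permutation p = 0.7). Its sign turned when pool 3 of 15 months was left out (0.114) or pool 3 of 3 months (0.00909). Pool 2 held 78.75% of the 15-month members and pool 3 held 60.0% of the 3-month members. A further 26 barcodes at 15 months, 25 of them in pool 2, and 3 at 3 months met the rule but exceeded 10% mitochondrial UMIs.

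**Figure D3:**
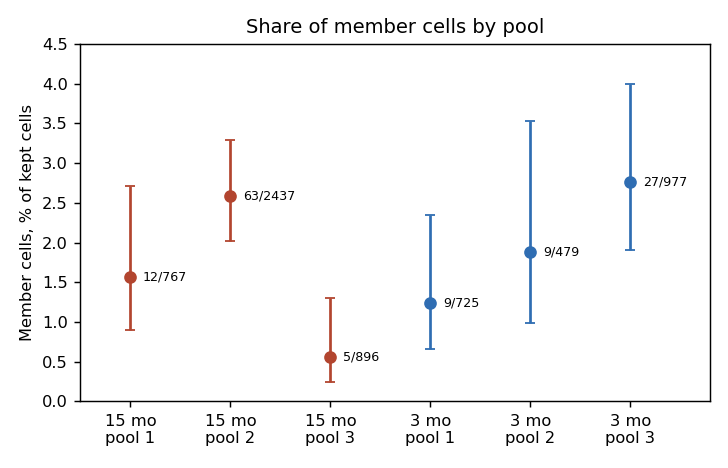
Points give the members as a percentage of kept cells in each hashtag pool, with members and kept cells printed beside them, and bars the 95% Wilson interval. The 15-month pools run from 0.558 to 2.59% and the 3-month pools from 1.24 to 2.76%.

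The steroid pathway was compared between ages first. Cyp11a1 averaged 4085 ± 2794 CPM at 15 months and 4193 ± 1813 CPM at 3 months, and Hsd3b1 2072 ± 1014 CPM at 15 months and 2302 ± 614 CPM at 3 months (SD over 3 pools of each age). Star had 305, 498 and 357 CPM in the 15-month pools, against 206, 253 and 184 CPM in the 3-month pools. The Star values did not overlap, as for 17.0% of the 3366 genes tested. As a rule gene Star was given no test, and its level depends in part on cells that entered through Star. Cells of the pattern with Star and under 5 of both other genes held 20 and 16 of the 42 Star UMIs in pool 3 of 15 months. In pool 1 of 15 months they held 13, 19 and 21 of the 89. Fdx1 had 1618, 4198 and 1146 CPM in the 15-month pools, against 4385, 3369 and 2587 CPM in the 3-month pools. Akr1cl had 2831, 3170.5 and 1902 CPM in the 15-month pools, against 5324, 3419 and 3058 CPM in the 3-month pools. For both genes the ranges of the ages overlapped.

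Of the 16 genes listed for steroid synthesis and cholesterol transport, 3 were rule genes, 7 others passed the filter on low counts, and 0 of these 7 passed the test. Over all 3366 genes tested with edgeR's quasi-likelihood test and Benjamini-Hochberg adjustment, 1 was higher and 2 were lower at 15 months (percent called 0.0297 and 0.0594, or 0.0891 in either direction), and 320 (9.51%) had an unadjusted p under 0.05. The median log2 ratio of the 7 was -0.41, against 0.01 over all genes. It was -1.32 without pool 2 of 15 months and negative in 18 of 22 other settings, the highest being 0.24 with the limit at 0.2% of UMIs. That last setting also lacked pool 3 of 15 months, which had under 5 cells in it. Values were -0.59 ± 0.43 (SE) for Fdx1, -0.12 ± 0.32 for Fdxr, 0.64 ± 0.37 for Por, which passes electrons to Cyp17a1, and 0.42 ± 0.26 for Tspo, an outer mitochondrial membrane protein. Hsd17b7 had -0.97 ± 0.63 and Srd5a1, a steroid 5-alpha reductase, -0.41 ± 0.48. Below the filter, Hsd17b1, which makes oestradiol from oestrone, was seen in 22 members and Stard3, an endosomal cholesterol carrier, in 46. Hsd3b6, Cyp21a1 and Cyp11b1 had 0 UMIs in the members.

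Cyp17a1, the theca enzyme of androgen synthesis, on chromosome 19 from 46667165 to 46673172 (minus strand, GRCm38), separated the pools of the ages without passing the adjusted threshold. It had 213, 11.5 and 8.49 CPM in the 15-month pools, against 563, 1854 and 1353 CPM in the 3-month pools. Every 15-month pool was below every 3-month pool, as for 572 of the 3366 genes (17.0%) in one direction or the other. The log2 ratio was -4.004 ± 0.97 (SE, edgeR adjusted p = 0.217). It passed in 4 of 21 other settings, and leaving out pool 1 of 15 months gave -6.79 (adjusted p = 0.0203). At least 2 Cyp17a1 UMIs were found in 15 members, 2 of 80 at 15 months and 13 of 45 at 3 months. These were 1, 1 and 0 cells in the 15-month pools, against 1, 2 and 10 in the 3-month pools. As a share of members they came to 3.31 ± 4.42% at 15 months and 23.5 ± 13.01% at 3 months (exact two-sided permutation p = 0.1, the smallest possible, chosen for testing after the values were seen). Pool 3 held 10 of the 13.

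The 15 Cyp17a1 cells had 8 to 279 UMIs of that gene, and 13 of them had both Cyp11a1 and Hsd3b1 at 5 or more. In the other 6156 kept cells, 41 Cyp17a1 UMIs were spread over 32 cells, at most 4 in a cell. Since 13 of the 15 were from 3 months, other genes were compared within that age, between these 13 cells and the other 32 members, as a description. Gsta2, a glutathione transferase, was seen in 11 of the 13, at 284 CPM, and in 5 of the 32, at 32.5 CPM. Smoc2, a secreted matrix protein, was seen in 13 of the 13, at 740 CPM, and in 19 of the 32, at 348 CPM. Lhcgr was seen in 12 of the 13, at 184 CPM, and in 18 of the 32, at a higher 252 CPM. Insl3, a peptide hormone of theca cells, had 9 UMIs in 3 of the 13 cells and 2 UMIs in 1 of the 32, and 0 in the 15-month members.

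**Figure D4:**
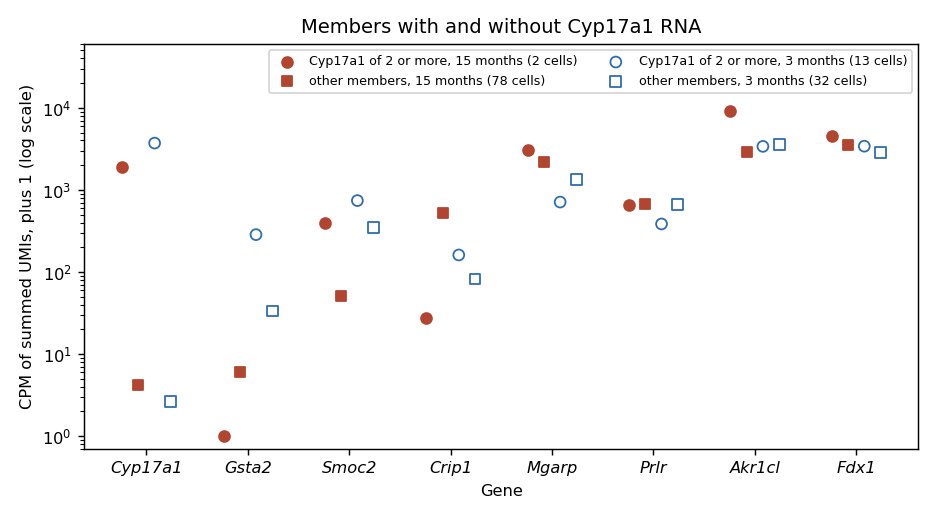
Levels of 8 genes, as CPM of summed UMIs plus 1 on a log scale, in members with at least 2 Cyp17a1 UMIs (circles) and in other members (squares), at 15 months (filled) and 3 months (open). Gsta2 stands at 284 CPM in the 13 Cyp17a1 cells of 3 months and at 32.5 CPM in the other 32 members of that age.

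Gsta2, on chromosome 9 from 78331018 to 78355788 (minus strand, GRCm38), was lower at 15 months. It had 0, 6.57 and 0 CPM in the 15-month pools (0, 8 and 0 UMIs), against 151, 98.6 and 118 CPM in the 3-month pools (25, 16 and 73 UMIs). The pools did not overlap, as the rule for naming genes required and as for 17.0% of the genes tested. The fitted log2 ratio was -4.67 ± 0.53 (SE, edgeR adjusted p = 0.0309). In the pattern with both Cyp11a1 and Hsd3b1, 2 of 55 cells at 15 months and 11 of 33 at 3 months had a Gsta2 UMI. Gsta2 has a near-identical neighbour, Gsta1, so the division of UMIs between them is uncertain. The call was lost without pool 1 of 3 months (adjusted p = 0.205) or pool 3 of 3 months (adjusted p = 0.315). It was also lost with at most 5% mitochondrial UMIs (adjusted p = 0.293), and with at most 5 UMIs of Tyrobp and C1qa (adjusted p = 0.342). The latter 2 fits had fewer pools, since those left with under 5 cells dropped out, so filter and loss of pools were not separated. In these 4 settings the log2 ratio ran from -4.80 to -4.24, and without pool 2 of 15 months it was -8.06 (adjusted p = 0.0064), a fitted value that depends on the prior count since the pools left at that age had 0 UMIs. Without the Cyp17a1 cells, or without barcodes over 1% haemoglobin, the gene no longer passed the filter on low counts.

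Smoc2, on chromosome 17 from 14279506 to 14404790 (plus strand, GRCm38), was lower at 15 months. It had 44.6, 60.0 and 76.4 CPM in the 15-month pools, against 666, 259 and 496 CPM in the 3-month pools. The pools did not overlap, which the naming rule required and 17.0% of the genes tested showed. The log2 ratio was -3.06 ± 0.40 (SE, edgeR adjusted p = 0.0338). In the pattern with both Cyp11a1 and Hsd3b1 the level was 77.9 CPM at 15 months and 591 CPM at 3 months, and in members with under 5 Tyrobp UMIs 79.7 CPM at 15 months and 599.6 CPM at 3 months. Without the Cyp17a1 cells the log2 ratio was -2.69 ± 0.76 and the call was lost (adjusted p = 0.565). In all it was lost in 12 of 22 other settings, among them without pool 1 or pool 3 of either age (adjusted p from 0.0544 to 0.2997) and with the limit at 5 UMIs, 20 UMIs or 0.2% of UMIs (adjusted p from 0.0643 to 0.143). With 20 UMIs or 0.2% of UMIs, pool 3 of 15 months had under 5 cells and was left out. The log2 ratio ran from -3.48 to -2.69 over the 22.

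Crip1, which encodes a small LIM-domain protein and lies on chromosome 12 from 113146316 to 113153879 (plus strand, GRCm38), was higher at 15 months. It had 686, 456 and 739 CPM in the 15-month pools, against 48.5, 117 and 123 CPM in the 3-month pools. The pools did not overlap, which the naming rule required and 17.0% of the genes tested showed. The log2 ratio was 2.63 ± 0.35 (SE, edgeR adjusted p = 0.0338). Crip1 stood at 1618 CPM in the other kept cells, and its r with the rule sum across members was -0.613. In members with at least 5 Tyrobp UMIs it stood at 1012 CPM at 15 months and 195 CPM at 3 months, and in those with fewer at 230.4 CPM at 15 months and 9.09 CPM at 3 months. In the pattern with both Cyp11a1 and Hsd3b1 it stood at 207 CPM at 15 months and 109 CPM at 3 months, and in the 6 and 1 cells with Star alone at 909 CPM at 15 months and 42.1 CPM at 3 months. A limit set at 0.2% of UMIs goes by share and not by count, so it changes the set of cells according to their depth. Which of these cells moved the result was not tested. With this limit the log2 ratio was 0.60 ± 0.36 (adjusted p = 0.721). In members with at most 5 UMIs of Tyrobp and C1qa it was 4.68 ± 1.16 (adjusted p = 0.452), and without the Cyp17a1 cells 3.16 ± 0.53 (adjusted p = 0.372). Pool 3 of 15 months had under 5 cells with the 0.2% limit and with the Tyrobp and C1qa limit, so both fits lacked it. The call was lost in 14 of 22 other settings, among them without any one pool other than the second of 15 months. The part of epithelial RNA in the difference was not tested.

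**Figure D5:**
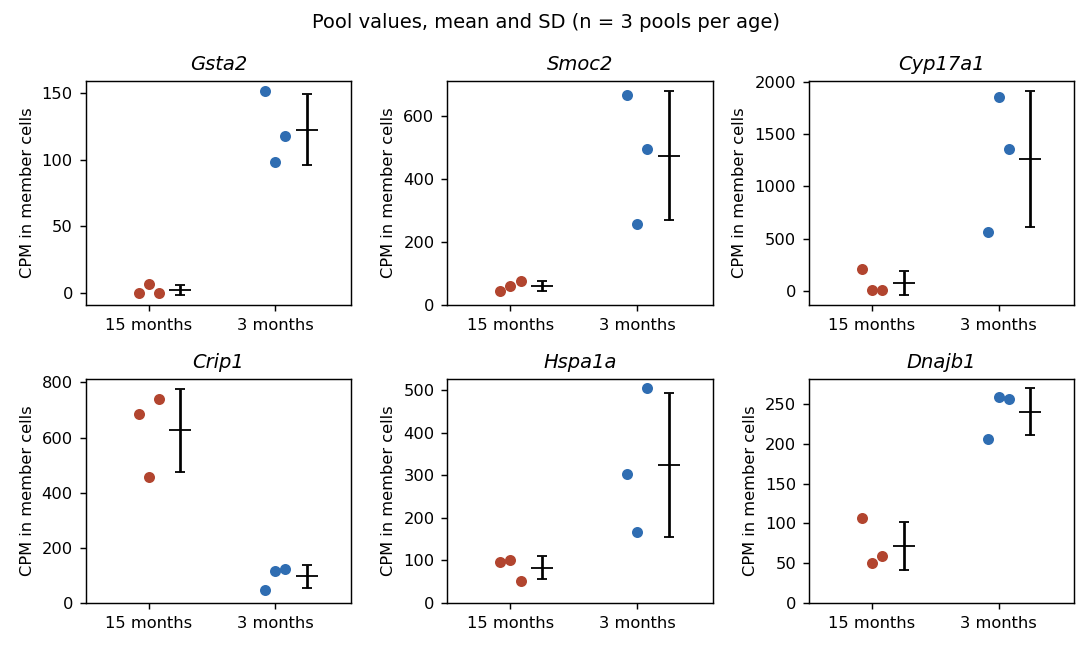
Each panel gives 1 gene in CPM of summed member UMIs, with 1 point per hashtag pool, 15 months left and 3 months right, and the mean with SD beside the points. Gsta2, Smoc2, Cyp17a1, Hspa1a and Dnajb1 lie lower in all 15-month pools and Crip1 higher, and of these Gsta2, Smoc2 and Crip1 passed the adjusted threshold.

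Theca, luteal and granulosa genes were counted with their lists. Of 8 theca genes 4 were tested, 3 were negative and 0 passed, with a median that was negative in 18 of 22 other settings, from -2.45 to 0.39: Cyp17a1 above, Aldh1a1 (-0.46 ± 0.62), Fabp3 (-0.22 ± 0.65) and Mgarp (0.01 ± 0.48). Below the filter, Ptch1, the hedgehog receptor, was seen in 43 members, with 31 UMIs at 15 months and 80 at 3 months. Hhip, a hedgehog inhibitor, was seen in 10 and Gli1, a hedgehog target, in 5. Of 10 luteal genes 7 were tested, 7 were negative and 0 passed, with a median log2 ratio of -0.60. The median ran from -1.23 to -0.37 over 22 other settings, and without pool 1 of 15 months 4 of 7 were negative. Of all genes tested, 1662 (49.4%) were negative. Lhcgr had 54.8, 127 and 42.5 CPM in the 15-month pools, against 497, 136 and 181 CPM in the 3-month pools, with a log2 ratio of -1.69 ± 0.55 (edgeR adjusted p = 0.370). Ptgfr, the receptor for prostaglandin F2-alpha, had -1.83 ± 0.99, Scarb1, which takes up cholesterol from lipoproteins, -0.96 ± 0.46, Prlr -0.39 ± 0.42, Akr1cl -0.60 ± 0.27, Sfrp4 -0.55 ± 0.93 and Cited4 -0.19 ± 0.51. Akr1c18, the enzyme that breaks down progesterone at the end of luteal life in the mouse, had 5 UMIs in 4 members. Parm1 was seen in 23 members and Onecut2 in 1. Of 10 granulosa genes 6 were tested, 5 were negative and 0 passed, with Inha at -0.50 ± 0.48, Inhba at -1.10 ± 1.40, Foxl2 at -0.83 ± 0.39, Fst at -0.36 ± 0.80, Serpine2 at -0.71 ± 0.75 and Nr5a2 at 0.66 ± 0.45. The direction rested on pool 2 of 3 months: without it 2 of 6 were negative, with a median of 0.21 against -0.60. With a limit of 20 rule UMIs, which also left out pool 3 of 15 months, 2 of 6 were negative, with a median of 0.11. Inhbb was seen in 9 members.

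Heat shock genes, chaperones that rise with stress, were all on the negative side: 8 of 8 tested, with a median log2 ratio of -1.18, 6 with an unadjusted p under 0.05 and 0 past the adjusted threshold, against 4.69% of all genes lower at 15 months with such a p. Dnajb1, a cofactor of Hsp70, had 106, 50.1 and 59.4 CPM in the 15-month pools, against 206, 259 and 257 CPM in the 3-month pools (log2 ratio -1.79 ± 0.32, edgeR adjusted p = 0.0917). Hspa1a, the inducible Hsp70, had 96.0, 100.2 and 51.0 CPM in the 15-month pools, against 303, 166 and 504 CPM in the 3-month pools (-1.95 ± 0.42, adjusted p = 0.201). Neither gene overlapped between the ages, as for 17.0% of the genes tested. Hspa1a shares nearly all its sequence with Hspa1b (-1.59 ± 0.55), so their UMIs may be divided unevenly. The other cells of the same libraries lay on the same side, with medians of -0.71 in C1q cells, -0.70 in stromal cells and -0.73 in all other kept cells, 8 of 8 negative each time and 0 past the threshold. The median in the members stayed negative in all 22 other settings, from -1.42 to -0.81.

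Of 15 genes for cholesterol supply 8 were tested, 6 were positive and 0 passed, with a median of 0.31 that ran from -0.12 to 0.45 over 22 other settings. Apoe, the lipid-carrying apolipoprotein that macrophages also make, had 9679, 7392 and 6930 CPM in the 15-month pools, against 4016, 4293 and 6231 CPM in the 3-month pools (0.70 ± 0.21, edgeR adjusted p = 0.305). Apoe stood at 12848.5 CPM in the other kept cells. Npc2, which carries cholesterol out of lysosomes, had 0.46 ± 0.20, and Abca1, a cholesterol exporter, -0.77 ± 0.35. Of 12 immediate early genes, which rise within minutes of a stimulus, 12 were tested, 11 were negative and 0 passed, with Fos at -0.89 ± 0.36 and Jun at -0.02 ± 0.35. Their median was -0.35, and 7 were negative with the limit at 0.2% of UMIs and 12 with 20 UMIs, both without pool 3 of 15 months. In C1q cells 11 of 12 were negative, in stromal cells 7 and in all other kept cells 10. The medians there were -0.22, -0.09 and -0.15. Of 13 antioxidant genes 12 were tested, 6 on each side, and 0 passed. Of 8 regulators of steroid genes 6 were tested and 0 passed, with Nr5a1 at -0.54 ± 0.44, Gata4 at 0.34 ± 0.49 and Cebpb at -0.53 ± 0.24.

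Markers of other cells were compared between ages as well, and 0 of them passed. Of 15 myeloid genes 14 were tested, 9 were positive and 0 passed. Lyz2 had 1.57 ± 0.58 and Ctss 1.56 ± 0.57, while the macrophage genes C1qa, C1qb, C1qc, Aif1 and Csf1r had -0.38, -0.15, -0.15, -0.33 and -0.11. With a limit of 20 rule UMIs, which also left out pool 3 of 15 months, 12 of 14 were negative, and without pool 2 of 3 months 8 of 14. Summed levels of the list ran from 8739 to 15510 CPM in the 15-month pools, against 5636 to 11335.5 CPM in the 3-month pools. Collagen genes Col1a1, Col1a2 and Col3a1 had -2.63 ± 0.57, -3.26 ± 0.82 and -2.01 ± 0.50, without passing, and Dcn, the other stromal gene tested, had 0.39 ± 0.68. The 6 stromal genes summed to 182 to 425 CPM at 15 months, against 647 to 1169 CPM at 3 months. The 4 epithelial genes summed to 90.4 to 1206 CPM at 15 months, against 6.16 to 30.3 CPM at 3 months, Krt18 having 187 UMIs in all at 15 months and 3 at 3 months. The 4 haemoglobin genes summed to 8.49 to 24.0 CPM at 15 months, against 351 to 37025 CPM at 3 months, where they took the most, 3.70% of member UMIs, in pool 1. Cd3e of T cells and Zp3 of oocytes were at 0 in the members. No endothelial, smooth muscle, T or NK, B, neutrophil or oocyte gene of the lists passed the filter on low counts. Of 13 mitochondrial genes 13 were tested, 9 were positive and 0 passed. What these other transcripts contribute to the age results was not tested.

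The age effect in the members was also set against that in C1q cells and in stromal cells of the same pools, as an interaction fitted with each pool as its own block. Against C1q cells 1 of 10871 genes passed (percent called 0.0092) and 480 had an unadjusted p under 0.05. The gene was Crip1, with an interaction of 2.64 ± 0.37 (SE, edgeR adjusted p = 0.0493). In C1q cells it averaged 1007 ± 23.3 CPM at 15 months and 1108 ± 311 CPM at 3 months. It passed in 8 of 18 other settings. Against stromal cells 1 of 6031 genes passed (percent called 0.0166) and 318 had an unadjusted p under 0.05. The gene was Ccl5, a chemokine, at -11.64 ± 1.32 (SE, edgeR adjusted p = 0.0234), on 0, 2 and 0 UMIs in the 15-month members, against 105, 3 and 16 in the 3-month members. All 105 UMIs of the first 3-month pool came from 1 cell, so this value rests on a handful of cells. Stromal cells had 1, 170 and 101 Ccl5 UMIs in the 15-month pools, against 0, 2 and 2 in the 3-month pools.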

How the data were processed

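Single-cell RNA libraries of CD45+CD11b+ ovary cells at 15 and 3 months were analysed from the deposited matrices, which hold raw UMI counts of 31053 genes and 3 hashtags per called barcode, per the file headers with no normalization by the authors. The headers name Cell Ranger 4.0.0, while the submitters' processing notes name Cell Ranger 7.0.0, FastQC 0.11.4 and mm10. Ages and hashtag pools come from the labels and the called hashtags, and the pool was the unit of replication (n = 3 each).

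UMI counts of member cells were summed per pool and tested as 15 months over 3 months with edgeR 4.0.16 in R 4.3.3 (filterByExpr, TMM, quasi-likelihood test, Benjamini-Hochberg adjustment over all genes, threshold 0.05), for pools with at least 5 cells. Differences between age effects were tested as an interaction, each pool being its own block. C1q cells had at least 10 UMIs of C1qa, C1qb and C1qc, and stromal cells at least 10 of Col1a1, Col1a2 and Dcn, with 103 cells in common. Shares used exact permutation tests over pools in scipy 1.17.1. Code was tested on simulated data. DESeq2 1.42.0 was an alternative.

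The members, lists, tests and settings were chosen with earlier results of these data known. Genes named were all measured members of the steroid, theca, luteal and granulosa lists, by rule the 3 highest of each other list, the 12 highest ratios, the 8 highest correlations, and up to 8 rises and 8 falls past the threshold of at least 50 CPM without overlap. That rule was not kept for the other lists, whose named genes were chosen after their values were seen, as were the patterns and the Cyp17a1 cells. Positions are from GENCODE M21 and promoters from RefSeq, both GRCm38. Replicate numbers did not pair the pools: same-numbered pools correlated at -0.0300, -0.0481 and 0.0188 in their deviations. Replicate counts measure the spread between pools of 1 library only.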

Additional observations from a re-analysis of the deposited data

Results flagged for a closer look

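Crip1 differed in its age effect between the members and C1q cells by a tested interaction of 2.64 on the log2 scale (edgeR adjusted p = 0.0493). The members averaged 627 ± 150.3 CPM at 15 months and 96.1 ± 41.3 CPM at 3 months, and C1q cells 1007 ± 23.3 CPM at 15 months and 1108 ± 311 CPM at 3 months (SD, n = 3 pools each). Over 18 other settings the interaction ran from 0.60 to 4.298.

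Ccl5 differed in its age effect between the members and stromal cells by a tested interaction of -11.64 (edgeR adjusted p = 0.0234). It passed in 12 of 16 other settings, from -12.77 to -8.66, and 105 of the 124 UMIs of the 3-month members were in 1 cell.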

How the results depend on the processing

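The share difference of -0.392 percentage points turned to 0.0772 without the 15 Cyp17a1 cells and ran from -0.900 to 0.114 when 1 pool was left out, and no setting could pass the threshold, since 3 pools against 3 allow no p below 0.1. The difference in myeloid share, 0.412, turned to -0.0168 with a limit of 5 rule UMIs, -0.264 with 20 and -0.268 with 0.2% of UMIs, and ran from 0.252 to 0.591 without 1 pool. With 20 UMIs or 0.2% of UMIs, pool 3 of 15 months had under 5 cells and was left out of the myeloid share. With the replicate number as a block, the share and myeloid differences were -0.392 and 0.412, and the gene counts were 7 higher and 7 lower.

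The count of 1 higher gene became 13 with DESeq2, 202 with every gene of at least 1 UMI, and 0 with at most 5% mitochondrial UMIs, without scrublet calls, without barcodes over 1% haemoglobin and without Cyp17a1 cells. It ran from 0 to 61 without 1 pool, the 61 being without the second 15-month pool. The count of 2 lower genes became 13 with DESeq2 and 131 with every gene. It was 1 with limits of 5 UMIs, 20 UMIs and 0.2%, with 5% mitochondrial UMIs and without scrublet calls. It was 0 with at most 5 UMIs of Tyrobp and C1qa and without Cyp17a1 cells, and ran from 0 to 8 without 1 pool.

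The 1 gene differing from C1q cells became 119 with every gene, 57 with 0.2% of UMIs, 12 with at most 5 UMIs of Tyrobp and C1qa, and 8 with a hashtag ratio of 5 or 5% mitochondrial UMIs. It became 0 with limits of 5 and 20 UMIs, without scrublet calls, haemoglobin barcodes or Cyp17a1 cells, and with 20% mitochondrial UMIs, and ran from 0 to 50 without 1 pool. The 1 gene differing from stromal cells became 113 with every gene, 6 with 0.2% of UMIs and 5 with 20 UMIs. It became 0 with a hashtag ratio of 5, at most 5 UMIs of Tyrobp and C1qa, or no Cyp17a1 cells, and ran from 0 to 9 without 1 pool. Kept cells that a setting took out of the members joined the C1q or stromal group where they met its limit, so both sides could change. Pools left with under 5 members dropped out of a setting. That held for pool 3 of 15 months with 20 UMIs, 0.2% of UMIs, and at most 5 UMIs of Tyrobp and C1qa. With at most 5% mitochondrial UMIs both ages lost pools. The causes of the changes in these counts were not tested. The settings without haemoglobin barcodes or Cyp17a1 cells, and with 20% mitochondrial UMIs, were chosen after the data were seen.

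Gene tests with pools of at least 10 cells, or with members of 5 UMIs of both Cyp11a1 and Hsd3b1, were not run, since too few pools remained.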
